A study of Sus scrofa with 8 samples.

Results

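The breed by altitude interaction asks whether the difference in heart RNA between high and low altitude is of another size, or of another direction, in Tibetan pigs than in Yorkshire pigs. For each gene it was taken as the difference TH minus TL, less the difference YH minus YL. TH are Tibetan pigs raised in the highland at 3000 m and TL are Tibetan pigs raised in the lowland at 100 m. YH and YL are Yorkshire pigs raised at the same sites. All 8 libraries of the series entered, 2 per group, and 11439 of the 18975 genes listed were tested. These genes had a scaled read count of at least 10, as deposited, in at least 2 libraries. They also had at least 1 FPKM (fragments mapped, per kilobase of transcript and per 1000000 of the library) in at least 2 of the 7 libraries other than YL2. The other 7536 genes were not tested. All pigs were males of 6 months, and each library was made from heart RNA pooled from 4 pigs. Libraries of one group thus differ as pools do, and not as single animals. Breed and altitude were both fixed by the groups, and whatever else differed between the sites cannot be told apart from altitude.

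The Tibetan pig is a breed of the Tibetan Plateau, and the Yorkshire pig is a commercial breed of lowland origin. In the heart, lasting load or low oxygen is known to go with the release of natriuretic peptides from myocytes and with shifts in contractile, ion channel and fuel genes. A gene with equal altitude differences in both breeds has an interaction of 0 however large those differences are. A positive interaction means that TH minus TL exceeds YH minus YL, and it can come from high values in TH or YL, or from low values in TL or YH. For this reason the levels in the groups are given beside the interaction.

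Reads on genes, recovered from the scaled counts deposited beside the FPKM, were estimated at between 15687000 and 26723000 per library. Among low values, 99.7% to 99.9% per library lay within 0.1 of a whole multiple of the step taken as 1 read. Whole reads could not be recovered with certainty in every library, so these estimates serve only for depth and for the reads behind single genes. The filter used the scaled counts themselves. The share of FPKM from mitochondrially encoded genes ran from 57.7% in YH2 to 87.6% in TH1. Library YL2 stood apart from the rest. Its mean Pearson correlation with the other libraries was 0.883 against 0.923 to 0.953 for the others, and 1005 genes reached 1 FPKM in YL2 only, against 30 to 103 for each other library. The summed FPKM of 23 kidney marker genes was 12480 in YL2 and between 18.1 and 35.5 in the other 7 libraries. Since YL2 makes up 1 of the 2 libraries of a group, the interaction was taken from a fit of all 8 libraries and again with YL1 alone for YL, where the single YL library is assumed to vary like those of the other groups. The labels of YL1 and YL2 also point to a file of TL in their description, against their title and breed, and both were taken as YL. Heart markers were high in every library, with TNNI3, the cardiac inhibitory troponin, between 4597 and 16846 FPKM.

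No gene passed the threshold for the interaction in either fit. With a limma model on log2(FPKM + 1), 0 of 11439 genes (0% called) had an adjusted p under 0.01 and an interaction over 1 in size in the fit of 8 libraries, and the count was also 0 (0%) with YL1 alone. At an adjusted p under 0.05 both counts remained 0. The lowest adjusted p by limma was 0.0771 in the 8-library fit and 0.0673 with YL1 alone. The SE of an interaction had a median of 0.41 on the log2 scale in the 8-library fit and 0.37 with YL1 alone. At an unadjusted p under 0.05 there were 1315 genes (11.5%) with 8 libraries and 1539 (13.5%) with YL1 alone.

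Below that level the data were described with a looser rule, an unadjusted p under 0.01 and an interaction over 1 in size. In the 8-library fit 84 genes were positive (0.734% of genes tested) and 267 were negative (2.33%). With YL1 alone, 158 genes were positive (1.38%) and 280 were negative (2.45%). Both fits shared 61 positive genes (0.533%), which are 72.6% of the positive genes of the first fit and 38.6% of those of the second. They shared 194 negative genes (1.7%), or 72.7% and 69.3% of the negative genes of each fit. The 2 fits share 7 libraries, so the overlap carries no independent replication. By sign alone, 5604 of the genes tested were above 0 and 5835 below with 8 libraries, and 5221 and 6218 with YL1 alone. Past the looser rule, negative genes outnumbered positive ones although the median interaction over all genes tested lay near 0. That median was -0.02 with 8 libraries and -0.06 with YL1 alone. The counts past the looser rule in both fits depended on single libraries. Without TH2 they became 269 positive and 743 negative genes, without TL1 33 and 72, without TL2 31 and 68, without YH1 28 and 71, and without YH2 54 and 68. With each library scaled to an equal FPKM sum there were 10 positive and 56 negative genes, of which 9 and 39 were among the 61 and the 194. Of the 61 positive genes 6, and of the 194 negative genes 16, reached 1 FPKM in the libraries of 1 group only, so they were tested only because that group was high. None of these 255 genes is a call after adjustment, and they are given as values. Below, the 12 largest of a direction are those with a symbol and the largest 8-library interaction among these genes. Members of a list that are named for being past the looser threshold were picked with their values in view.

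The altitude differences of the breeds ran against each other in most of these genes. TH minus TL and YH minus YL share no library, and across the 11439 genes tested their Pearson correlation was -0.108 with 8 libraries and -0.16 with YL1 alone, given as a description since genes are not independent replicates. Of the 61 positive genes, 46 had sides of opposite sign, with a median TH minus TL of 1.41 and a median YH minus YL of -0.41 on the log2 scale. Of the 194 negative genes, 188 had sides of opposite sign, with medians of -1.01 and 0.81. The Tibetan side was the larger one in 49 of the 61 positive genes and in 114 of the 194 negative genes. In single libraries, both TH libraries lay above the 2 TL, the 2 YH and the YL1 libraries in 46 of the 61 positive genes, a pattern that 13.9% of all genes tested had. Both TH libraries lay below those 5 libraries in 125 of the 194 negative genes, against 12.2% of all genes tested. TH above TL together with YH below YL, without overlap, held for 31 positive genes and for 4.09% of all genes. The reverse order, TH below TL together with YH above YL, held for 164 negative genes and for 7.53% of all genes. These genes were chosen on the same values, so the patterns describe them and test nothing.

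**Figure D1:**
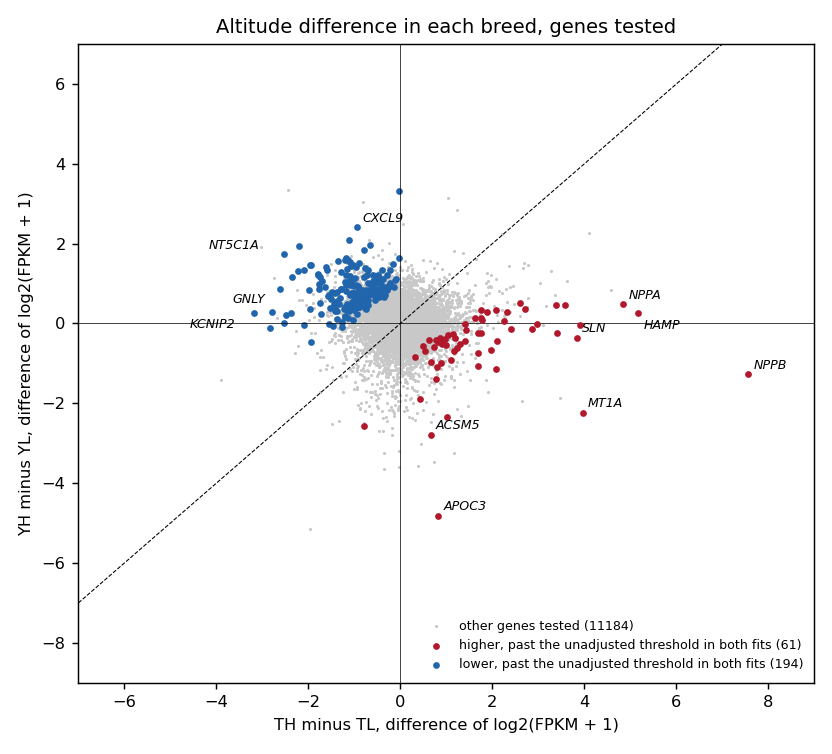
Altitude difference in Tibetan pigs (TH minus TL, horizontal axis) against that in Yorkshire pigs (YH minus YL, vertical axis), both as differences of mean log2(FPKM + 1) from the fit of 8 libraries, 1 point per gene tested. The dashed line marks equal differences and so an interaction of 0, and the 61 positive genes (red) lie below it while the 194 negative genes (blue) lie above it.

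The natriuretic peptides, hormones of the heart muscle that lower blood volume and pressure, were among the 12 largest of the positive direction, and NPPB had the largest interaction of all genes tested. NPPB, the precursor of B-type natriuretic peptide, lies at chr6:65840060-65841530 of Sscrofa10.2 as the table lists it. Its FPKM was 4963 and 3264 in TH against 7.75 and 51.7 for TL, 16.1 and 180 for YH, 278 for YL1 and 64.3 for YL2. Both TH libraries were far above all other libraries, while YH and YL overlapped. Its interaction was 8.83 ± 1.81 (SE) with 8 libraries and 9.87 ± 1.88 with YL1 alone (limma adjusted p = 0.244 and 0.174). NPPA, the precursor of atrial natriuretic peptide, lies beside it at chr6:65830301-65830859. NPPA had 2264 and 2146 FPKM in TH against 53.1 and 108 for TL, 23.1 and 93.1 for YH, 23.3 for YL1 and 46.3 for YL2. Here again TH stood alone and the Yorkshire groups overlapped. The interaction of NPPA was 4.36 ± 0.94 with 8 libraries and 3.88 ± 1.0 with YL1 alone (limma adjusted p = 0.253 and 0.228). CORIN, the protease that cleaves the precursor of atrial natriuretic peptide into its active form, went the other way, with 3.84 and 4.32 FPKM in TH against 11.2 and 9.83 for TL, 10.4 and 14.3 for YH, 4.63 for YL1 and 2.21 for YL2. TH lay below TL without overlap, and YH lay above YL without overlap. The interaction of CORIN was -2.81 ± 0.44 with 8 libraries and -2.41 ± 0.34 with YL1 alone.

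SLN was also among the 12 largest. SLN, sarcolipin, the small membrane protein that inhibits the calcium pump of the sarcoplasmic reticulum, had 56.5 and 16.3 FPKM in TH against 0.81 and 1.69 for TL, 2.11 and 2.33 for YH, 2.74 for YL1 and 3.52 for YL2. TH was above every other library, and YH was slightly below YL. Its interaction was 4.19 ± 0.74 with 8 libraries and 4.06 ± 0.83 with YL1 alone (limma adjusted p = 0.213 and 0.189). NPPA and SLN are also markers of the atrial chamber. In the atrial list NPPA and SLN were past the looser threshold as positive (14.3% of the list) and TBX5, given below, as negative (7.14%). Of all genes tested 0.533% and 1.7% were past it in these directions. Of 14 atrial genes tested, 6 were above 0 and 8 below, with a median of -0.12 with 8 libraries and 0.05 with YL1 alone. That median was 0.17 and -0.33 without TH1 and TH2, 0.03 without TL2, -0.31 and 0.13 without YH1 and YH2, and -0.31 without YL1. MYL7, the atrial regulatory light chain, had 4283 and 3207 FPKM in TH against 1415 and 2396 in TL, and 576 and 932 in YH against 2578 and 337 in YL1 and YL2. Its interaction was 1.36 ± 1.23 with 8 libraries and 2.82 ± 0.62 with YL1 alone, and -0.11 without YL1. MYL4, the atrial essential light chain, had 7.59 and 6.73 FPKM in TH against 8.85 and 21.4 for TL, 3.48 and 3.54 for YH, 4.60 for YL1 and 2.09 for YL2, and its interaction was -0.99 and -0.56 in the 2 fits, and -1.58 and -0.39 without TL1 and TL2. MYL4 was named after its values were seen. The summed FPKM of the 17 atrial genes in the table was 5645 to 6867 in TH and 530 to 2848 in the other libraries, but most of it came from NPPA and MYL7. The other 15 genes summed to 292 to 320.1 in TH and to 147 to 270 in the other libraries. The part of the sampled chamber in these results was not tested. In the wider list of cardiac stress genes, which holds the peptides and CORIN, 13 of 24 were above 0 with 8 libraries and 18 with YL1 alone, and the median went from 0.19 to 0.96, beside an SD of 0.63 between replicate libraries. That SD is of the list median in a single library, YL2 included, and an interaction varies more than that. The median of this list fell below 0 when TH1, TL1, YH1 or YL1 was left out (-0.03, -0.09, -0.05 and -0.45).

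HAMP, MT1A and SDF2L1 were also among the 12 largest. HAMP encodes hepcidin, the hormone that limits iron release into blood, and had 35.2 and 50.3 FPKM in TH against 0.43 and a listed 0 for TL, 0.12 and 2.09 for YH, 1.04 for YL1 and 0.17 for YL2. TH was above all other libraries and YH overlapped YL. The interaction of HAMP was 4.90 ± 0.73 with 8 libraries and 5.30 ± 0.76 with YL1 alone (limma adjusted p = 0.19 and 0.121). MT1A, a metallothionein that binds zinc and copper, had 20.6 and 12.4 FPKM in TH against 0.20 and a listed 0 for TL, 2.25 and 7.23 for YH, 4.68 for YL1 and 104 for YL2. Library YL2 was the highest of all, so the interaction of MT1A went from 6.20 ± 1.69 with 8 libraries to 4.10 ± 0.71 with YL1 alone. SDF2L1, a component of the chaperone machinery of the endoplasmic reticulum, had 12.8 and 7.69 FPKM in TH against 1.06 and 2.22 for TL, 1.78 and 3.51 for YH, 4.83 for YL1 and 9.34 for YL2. In SDF2L1 both TH over TL and YL over YH were free of overlap, and the interaction was 3.22 ± 0.59 with 8 libraries and 2.81 ± 0.57 with YL1 alone.

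In APOC3 and ACSM5 the value came from YL. APOC3, an apolipoprotein that slows the clearance of triglyceride-rich particles, had 13.6 and 94.7 FPKM in YL1 and YL2 but 0.63 and 0.085 for YH, 1.5 and 0.51 for TH and 0.11 and 0.092 for TL. The YL libraries were the only ones above 2 FPKM. Its interaction was 5.63 ± 1.1 with 8 libraries and 4.27 ± 0.49 with YL1 alone. ACSM5, a mitochondrial enzyme that activates medium-chain fatty acids, had 6.91 and 5.29 FPKM in YL1 and YL2, 0.014 and 0.037 for YH, 0.11 and 1.5 for TH and 0.071 and 0.049 for TL. Both YL libraries stood above the rest, and the interaction was 3.44 ± 0.52 with 8 libraries and 3.60 ± 0.57 with YL1 alone.

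Of the remaining 4 of the 12 largest of the positive direction, 3 were carried by TH. SPAG11, a gene of the defensin type known from the epididymis, had 24.4 and 15.5 FPKM in TH and 0.27 to 2.35 in the other 6 libraries. CCDC3, a secreted coiled-coil protein, had 25.5 and 43.3 FPKM in TH and 1.68 to 4.39 elsewhere. YBX2, a Y-box RNA-binding protein known from germ cells, had 31.3 and 12.9 FPKM in TH and 0.52 to 3.36 elsewhere. In each of the 3 genes TH did not overlap any other library, and their interactions were 3.96 ± 0.49, 3.65 ± 0.46 and 3.11 ± 0.77 with 8 libraries and 4.30, 3.86 and 3.57 with YL1 alone. SLC5A6, the sodium-dependent carrier of biotin and pantothenate, had 50.7 and 34.5 FPKM in TH against 4.45 and 5.46 for TL, 10.7 and 19.4 for YH, 12 for YL1 and 21.1 for YL2, so that TH was the highest group, TL the lowest, and the Yorkshire groups overlapped. In SLC5A6 TH minus YH was 1.47 and TL minus YL -1.51, and the interaction was 2.99 ± 0.54 with 8 libraries and 2.61 ± 0.51 with YL1 alone. Over the 12 genes the limma adjusted p ran from 0.187 to 0.302 with 8 libraries and from 0.0975 to 0.228 with YL1 alone.

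**Figure D2:**
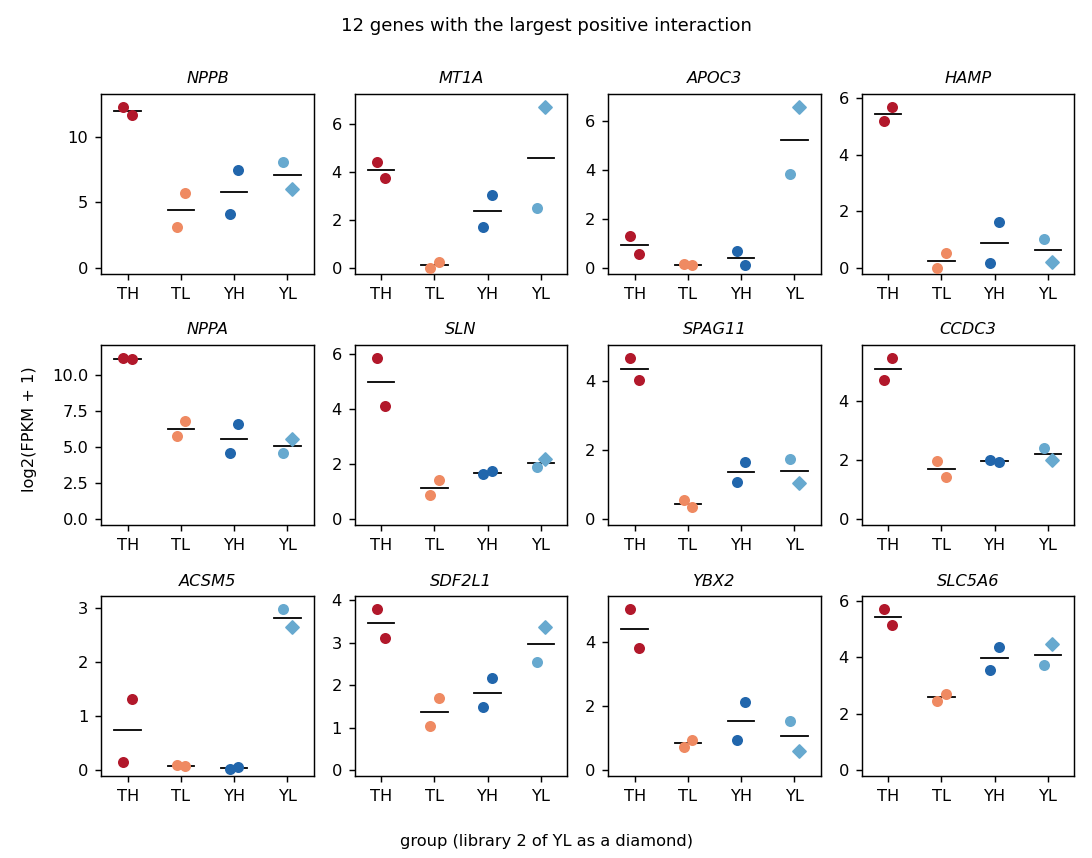
log2(FPKM + 1) of the 12 symbol-bearing genes with the largest positive interaction among those past the unadjusted threshold in both fits, 1 point per library and a bar at each group's mean, with YL2 as a diamond. TH is the highest group in 9 of the panels by mean, and YL is the highest in MT1A, APOC3 and ACSM5.

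The genes with the lowest adjusted p in the 8-library fit had smaller interactions than the 12 above and are named here after their values were seen. They reached 1 FPKM in TH only and so were tested only because TH was high, and their adjusted p values are a description. CRTAC1, a secreted protein known from cartilage, is listed as 2 Ensembl genes. The first (ENSSSCG00000026089) had 7.02 and 6.74 FPKM in TH, with a maximum of 0.13 in the other libraries, with an interaction of 2.98 ± 0.26 (limma adjusted p = 0.0771 with 8 libraries and 0.0975 with YL1 alone). The second (ENSSSCG00000010530) had 2.77 and 6.46 FPKM in TH, with a maximum of 0.21 elsewhere, with an interaction of 2.54 ± 0.45. Reads could have been divided between the 2 gene models, so each level alone is uncertain. CHI3L1, a chitinase-like glycoprotein of injured tissue and macrophages, had 11.3 and 10.1 FPKM in TH against 0.14 and 0.099 for TL, 0.76 and 0.73 for YH, 0.12 for YL1 and 0.43 for YL2. Its interaction was 2.92 ± 0.29 with 8 libraries and 2.74 ± 0.28 with YL1 alone (limma adjusted p = 0.0993 and 0.0975). In all 3 gene models the TH libraries lay apart from the other 6. With YL1 alone, 11 genes had an adjusted p under 0.1, 7 of them positive. The lowest there, 0.0673, was that of IGLV-8, an immunoglobulin segment, named after its values were seen, with 1.09 and 1.16 FPKM in TH against 5.88 and 4.90 for TL, 5.52 and 6.41 for YH, 0.47 for YL1 and 10.1 for YL2. The YL libraries of IGLV-8 were the lowest and the highest of all, and its interaction went from -3.82 ± 0.30 with YL1 alone to -2.37 ± 1.12 with 8 libraries (limma adjusted p = 0.473). SPAG11, APOC3 and SLA-DRB*K07G, an antigen-presenting molecule, had the same adjusted p of 0.0975 as CRTAC1 and CHI3L1 in that fit, with interactions of 4.30, 4.27 and -3.40.

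NT5C1A and KCNIP2 led the 12 largest of the negative direction. NT5C1A, the cytosolic nucleotidase that makes adenosine from AMP in heart and skeletal muscle, lies at chr6:88568949-88585198. Its FPKM was 1.37 and 3.96 in TH against 19.7 and 17.9 for TL, 23.1 and 17.2 for YH, 5.97 for YL1 and 4.66 for YL2. TH was below all other libraries, and YH was above YL without overlap. Its interaction was -4.27 ± 0.51 with 8 libraries and -4.12 ± 0.56 with YL1 alone (limma adjusted p = 0.187 and 0.114). KCNIP2, the subunit that sets the density of the transient outward potassium current, had 15.2 and 13.5 FPKM in TH against 163 and 116 for TL, 119 and 78.4 for YH, 134 for YL1 and 48.6 for YL2. In this gene the Tibetan side carried the value, with TH minus TL at -3.18, while YH and YL overlapped and YH minus YL was 0.26. The interaction of KCNIP2 was -3.43 ± 0.67 with 8 libraries and -2.71 ± 0.44 with YL1 alone (limma adjusted p = 0.226 and 0.168).

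MYOM3, SMYD1 and KLHL31, also among the 12 largest, shared a low TH and a high YH. MYOM3, a protein of the sarcomeric M-band, had 13.8 and 21.4 FPKM in TH against 57.8 and 51.8 for TL, 46.4 and 44.5 for YH, 22.2 for YL1 and 12.1 for YL2. SMYD1, a muscle-specific methyltransferase needed for sarcomere assembly, had 7.10 and 17.1 FPKM in TH against 41.1 and 40.9 for TL, 36.5 and 40.9 for YH, 18.8 for YL1 and 13.6 for YL2. KLHL31, a kelch protein of striated muscle, had 5.02 and 14.8 FPKM in TH against 36.3 and 38.4 for TL, 31.3 and 29.8 for YH, 17.2 for YL1 and 6.22 for YL2. In these genes TL and YH were near each other and both were above TH and YL without overlap. PFKM, the muscle phosphofructokinase of glycolysis, showed the same order, with 82.1 and 120 FPKM in TH against 299 and 387 for TL, 330 and 350 for YH, 235 for YL1 and 125 for YL2. The interactions were -3.03 ± 0.47 for MYOM3, -3.01 ± 0.54 for SMYD1, -3.43 ± 0.77 for KLHL31 and -2.75 ± 0.52 for PFKM with 8 libraries. With YL1 alone they were -2.62, -2.79, -2.76 and -2.30.

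GNG7, NEK7 and CRYBG3 were also among the 12 largest. GNG7, a gamma subunit of G proteins, had 8.12 and 21.9 FPKM in TH against 65.2 and 45.3 for TL, 39.1 and 58.8 for YH, 27.1 for YL1 and 10.3 for YL2, but only 5 to 44 reads per library stood behind these levels. NEK7, a kinase needed for the NLRP3 inflammasome, had 2.29 and 8.72 FPKM in TH against 13.4 and 19.6 for TL, 27.6 and 24.0 for YH, 7.30 for YL1 and 12.6 for YL2. CRYBG3, a protein with beta-gamma crystallin domains, had 5.12 and 13.4 FPKM in TH against 32.6 and 40.5 for TL, 17.3 and 14.3 for YH, 10.3 for YL1 and 6.72 for YL2. In all 3 genes TH was below TL and YH above YL without overlap, and their interactions were -3.40 ± 0.80, -2.94 ± 0.72 and -2.83 ± 0.59 with 8 libraries and -2.74, -3.29 and -2.56 with YL1 alone. Over the 12 largest of the negative direction the limma adjusted p ran from 0.187 to 0.276 with 8 libraries and from 0.0975 to 0.232 with YL1 alone.

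**Figure D3:**
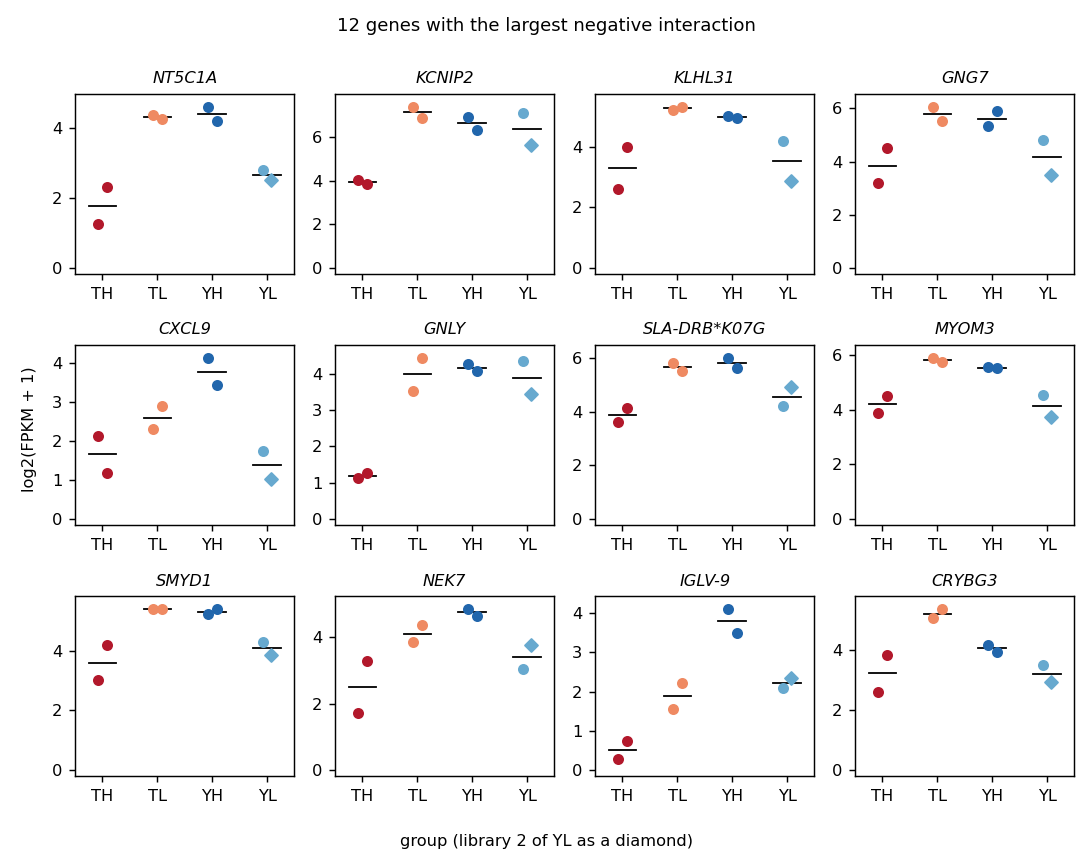
log2(FPKM + 1) of the 12 symbol-bearing genes with the largest negative interaction among those past the unadjusted threshold in both fits, 1 point per library and a bar at each group's mean, with YL2 as a diamond. TH has the lowest mean in 9 of the panels, and YL has it in CXCL9, MYOM3 and CRYBG3.

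Genes of T cells and cytotoxic cells were mostly below 0. Of 21 markers of T, NK and B lymphocytes 14 were tested, and all 14 were below 0 with 8 libraries and 13 of 14 with YL1 alone. In the list 7 of 14 were past the unadjusted threshold in both fits (CD3D, CD3E, CD3G, CD2, CD8A, LCK and GZMA), beside 1.7% of all genes tested, and none was positive past it. CD3D, CD3G and ZAP70, 3 of the 14, reached 1 FPKM in YH only and were tested only because YH was high, so the counts over tested members describe the list and support nothing. Without the filter, 0 of the 20 members in the table were above 0 with 8 libraries, with a median of -1.09. The median interaction of the tested members was -1.20 with 8 libraries and -1.31 with YL1 alone. Its median was 0.83 for YH minus YL and -0.36 for TH minus TL. The list median stayed below 0 under all 16 alternative settings, from -2.34 to -0.73. Blood-borne and resident cells, and fewer cells of a type and less RNA per cell, cannot be told apart in RNA of whole tissue.

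Single libraries show the order of the groups. CD3E, a chain of the T cell receptor complex, had 1.69 and 0.86 FPKM in TH against 2.11 and 1.83 for TL, 6.60 and 9.08 for YH, 2.13 for YL1 and 2.84 for YL2. YH was above every other library and TH below every other library, and the interaction was -1.75 ± 0.38 with 8 libraries and -1.89 ± 0.40 with YL1 alone. CD2, an adhesion receptor of T and NK cells, had 0.49 and 0.28 FPKM in TH against 1.42 and 2.19 for TL, 4.18 and 4.82 for YH, 1.74 for YL1 and 2.02 for YL2, with the same order and an interaction of -1.94 ± 0.32 and -2.01 ± 0.34 in the 2 fits. GZMA, a protease of cytotoxic granules, had 0.16 FPKM in TH2 and was listed at 0 in TH1, with 0.95 and 2.03 for TL, 1.75 and 2.49 for YH, 0.56 for YL1 and 0.99 for YL2. These levels are low, and the interaction of GZMA was -1.99 ± 0.40 and -2.16 ± 0.42. GNLY, the granule protein granulysin, had 1.17 and 1.39 FPKM in TH against 10.6 and 20.5 for TL, 18.1 and 15.8 for YH, 19.2 for YL1 and 9.86 for YL2, so that TH alone was low, and the interaction was -3.06 ± 0.55 and -2.62 ± 0.48. CXCL9, a chemokine that draws T cells and is induced by interferon gamma, had 3.39 and 1.28 FPKM in TH against 3.96 and 6.51 for TL, 16.6 and 9.92 for YH, 2.38 for YL1 and 1.03 for YL2, so that YH was high, and its interaction was -3.35 ± 0.62 and -2.98 ± 0.63. The summed FPKM of the 20 lymphocyte markers in the table ran from 27.2 to 41.2 for TH, from 45.4 to 54.3 for TL, from 87.3 to 101 for YH and from 49.2 to 49.6 for YL.

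The SLA class II genes, the pig molecules that present antigen to helper T cells, went in the same direction. They were taken up after their values were seen, as all tested symbols that begin with SLA-D. All 7 were below 0 in both fits, and 5 of 7 were past the unadjusted threshold in both, beside 1.7% of all genes tested. SLA-DQA1 had 45.3 and 53.2 FPKM in TH against 97.8 and 108 for TL, 133 and 153 for YH, 75.9 for YL1 and 58.4 for YL2, with an interaction of -2.14 ± 0.34 with 8 libraries and -1.95 ± 0.32 with YL1 alone. SLA-DRB*K07G had 11.3 and 16.7 FPKM in TH against 55.8 and 44.9 for TL, 62.8 and 48.7 for YH, 17.5 for YL1 and 29.3 for YL2, with an interaction of -3.04 ± 0.46 and -3.40 ± 0.41. In both genes TH was the lowest and YH above YL without overlap. IGLV-9, an immunoglobulin segment, had 0.21 and 0.68 FPKM in TH against 1.91 and 3.64 for TL, 16.1 and 10.17 for YH, 3.25 for YL1 and 4.10 for YL2, with an interaction of -2.94 ± 0.47 and -3.07 ± 0.52. The SLA genes and the immunoglobulin segments have near-identical copies and alleles that differ between breeds, so their levels between breeds are uncertain. The wider list of interferon and antigen presentation genes had 2 of 20 past the threshold, both negative, beside 1.7% of all genes tested in that direction, and a median of -0.23 with 8 libraries but 0.85 with YL1 alone, when 13 of 20 were above 0, 0.05 without YH1 and -1.34 without YL1.

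**Figure D4:**
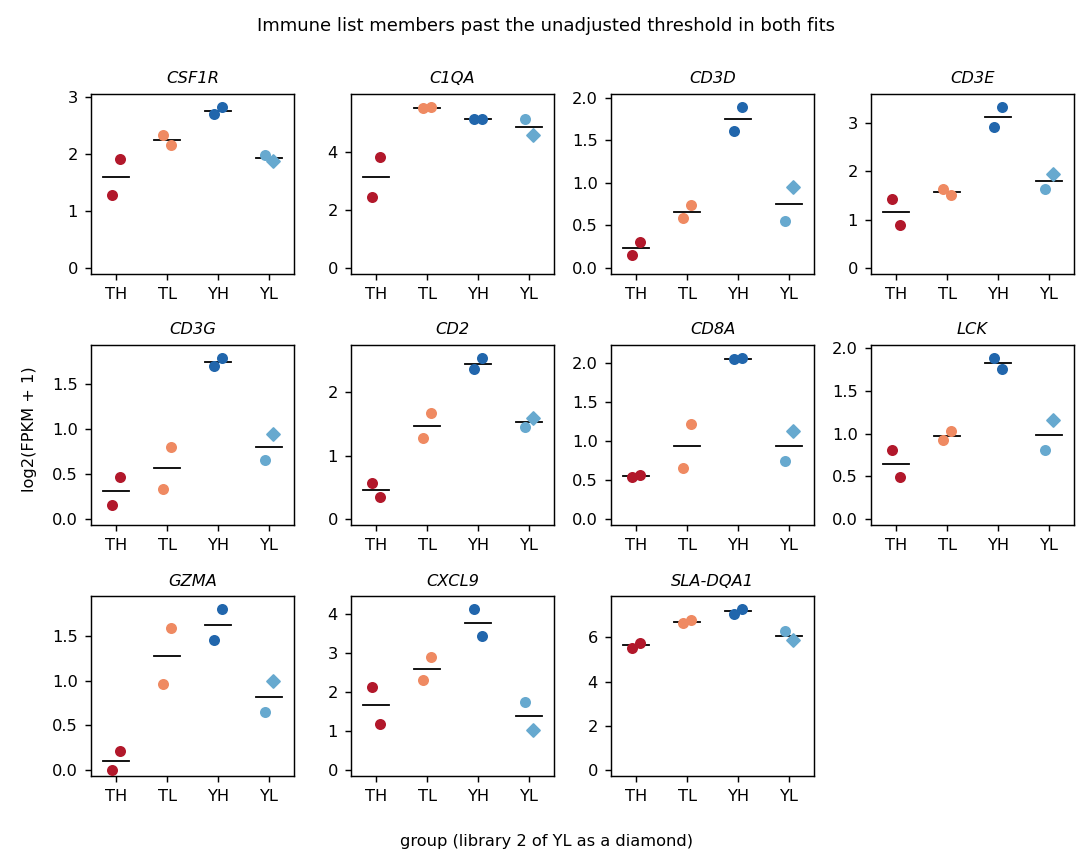
log2(FPKM + 1) of the 11 members of the myeloid, lymphocyte and antigen presentation lists past the unadjusted threshold in both fits, 1 point per library and a bar at each group's mean, with YL2 as a diamond. YH has the highest mean in every panel except C1QA, where TL is highest, and TH has the lowest mean in every panel except CXCL9.

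Macrophage genes were less even. Of 12 tested, 6 were above and 6 below 0 with 8 libraries, and the median was -0.30. With YL1 alone 4 were above and 8 below, with a median of -0.29. The 8-library median became -0.54 and -0.58 without TH1 and TH2, -0.54 and -0.07 without YH1 and YH2, and -0.50 without YL1. C1QA, a chain of the first complement component made by macrophages, had 4.49 and 13.1 FPKM in TH against 22.9 to 45.5 in the other 6 libraries, and its interaction was -2.65 ± 0.61 with 8 libraries and -2.37 with YL1 alone. CSF1R, the receptor for the growth factor of macrophages, had 1.44 and 2.74 FPKM in TH against 4.03 and 3.46 for TL, 5.48 and 6.06 for YH, 2.96 for YL1 and 2.67 for YL2, and its interaction was -1.48 ± 0.36 and -1.42 in the 2 fits. By contrast CCL2, a chemokine for monocytes, had 156 and 91.2 FPKM in TH and 8.02 to 52.5 elsewhere, and its interaction of 1.18, which was 0.16 without YH1 and 2.20 without YH2, was not past the threshold. The list therefore had members on both sides, and 2 of 12 were past the threshold, both negative, beside 1.7% of all genes tested.

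Genes of the TCA cycle and glycolysis were mostly below 0, while mitochondrially encoded genes were mostly above 0. Of all 11439 genes tested, 5835 were below 0 with 8 libraries and 6218 with YL1 alone. Genes of fatty acid use lay near that share with YL1 alone. In the list of the TCA cycle and branched-chain amino acid catabolism 30 of 33 were below 0 with 8 libraries and 27 with YL1 alone, with a median of -0.75 and -0.65. TH lay below the TL, YH and YL1 libraries in 25 of 33 genes, against 12.2% of all genes tested. In this list the side of TH minus TL had a median of -0.63, and YH minus YL had 0.22 with 8 libraries and 0.00 with YL1 alone. BCKDHB, a subunit of the complex that oxidizes branched-chain keto acids, was the 1 member past the unadjusted threshold (3.03% of the list, beside 1.7% of all genes tested), with 10.9 and 15.6 FPKM in TH and 31.2 to 42.0 in the other 6 libraries. The interaction of BCKDHB was -1.40 ± 0.37 with 8 libraries and -1.57 ± 0.38 with YL1 alone. MDH2, the mitochondrial malate dehydrogenase, had 612 and 431 FPKM in TH against 477 and 557 for TL, 548 and 531 for YH, 694 for YL1 and 276 for YL2, and its interaction was -0.30 with 8 libraries and 0.36 with YL1 alone. IDH2, an isocitrate dehydrogenase, had 568 and 373 FPKM in TH against 414 and 550 for TL, 486 and 457 for YH, 505 for YL1 and 268 for YL2, with -0.41 and 0.05. The groups of both genes overlapped within each breed. Glycolysis, glycogen and pyruvate genes had 24 of 32 below 0 and a median of -0.57, or 20 of 32 and -0.31 with YL1 alone, and the median was -1.05 without YL1 and -1.15 under scaling to a common FPKM sum of 1000000. ENO3, the muscle enolase, had 713 and 492 FPKM in TH against 1198 and 1496 for TL, 873 and 899 for YH, 949 for YL1 and 416 for YL2, with TH below TL and the Yorkshire groups overlapping. The fatty acid list had 19 and 16 of 28 below 0 in the 2 fits, a median of -0.30 and -0.12, and 0 past the threshold, beside 1.7% of all genes tested in the negative direction. Its median was -0.49 without TH1, -0.07 without TH2 and -0.50 without YL1. It was -0.86, with 4 of 28 above 0, under that scaling. Mitochondrially encoded genes had 12 of 13 above 0 with 8 libraries and 13 of 13 with YL1 alone, with medians of 0.46 and 1.30 beside an SD between replicate libraries of 0.66 for the list. That SD is of the list median in a single library, YL2 included, and an interaction varies more than that. The 8-library median was -0.19 under that scaling, 0.01 and 0.93 without TH1 and TH2, 0.72 and 0.19 without YH1 and YH2, and -0.35 without YL1. Nuclear oxidative phosphorylation genes had 24 of 69 above 0 with 8 libraries and 50 of 69 with YL1 alone, so that the median went from -0.14 to 0.37, and it was -0.52 and 0.22 without TH1 and TH2, -0.08 without TL2 and -0.61 without YL1. Under scaling to a common FPKM sum of 1000000 it was -0.77, with 2 of 69 above 0.

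The lists of the contractile and electrical machinery depended on the YL libraries. Sarcomere genes had a median of -0.59 with 8 libraries and -0.08 with YL1 alone, ventricular genes had -0.88 and -0.31, and calcium cycling and channel genes had -0.70 and -0.20. Without YL1, so that YL2 alone stood for YL, the medians were -1.32, -1.36 and -1.31, and the sarcomere median was -0.36 without TL2. Their summed FPKM was lowest in YL2, with 24000 for sarcomere genes against 42160 to 79450 in the other libraries, and 1956 for calcium and channel genes against 2223 to 3644. Most single genes had large errors, such as MYL3, the ventricular essential light chain, with 7440 and 5341 FPKM in TH against 7951 and 9276 for TL, 6556 and 7282 for YH, 7963 for YL1 and 3282 for YL2, and an interaction of -0.88 ± 0.74 in the first fit and -0.24 ± 0.55 in the second. MYH6, the fast alpha myosin heavy chain, was named after its values were seen, with 20.6 and 18.4 FPKM in TH against 75.1 and 161 for TL, 246 and 135 for YH, 88.4 for YL1 and 2.60 for YL2. TH was below TL and YH above YL without overlap, and the interaction of MYH6 was -5.79 ± 1.82 with 8 libraries and -3.47 with YL1 alone, without passing the looser threshold in both fits. FHL2, a LIM protein that links titin to signaling, had 29.0 and 42.1 FPKM in TH against 155 and 126 for TL, 60.4 and 59.9 for YH, 60.8 for YL1 and 35.4 for YL2, and its interaction was -2.33 ± 0.46 and -1.95 ± 0.38. TBX5, a transcription factor of heart development and a member of the atrial list, had 9.14 and 8.39 FPKM in TH against 15.3 and 17.1 for TL, 15.5 and 12.3 for YH, 10.6 for YL1 and 5.31 for YL2, and its interaction was -1.60 ± 0.44 and -1.16 ± 0.31.

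Positive medians were found for the list of ribosomal genes, for that of annexins, S100 proteins and membrane repair, and for that of chaperones. Of 70 cytosolic ribosomal protein genes tested 69 were above 0 in each fit, with a median of 0.78 with 8 libraries and 0.91 with YL1 alone. TH lay above the TL, YH and YL1 libraries in 54 of 70 genes, against 13.9% of all genes tested. RPLP1, an acidic stalk protein, had 3612 and 2715 FPKM in TH against 1702 and 2003 for TL, 1664 and 2149 for YH, 2076 for YL1 and 1555 for YL2, with an interaction of 0.69 and 0.90. Only RPSA, the laminin-binding protein of the small subunit, was past the unadjusted threshold (1.43% of the list, beside 0.533% of all genes tested), with 12.2 and 15.8 FPKM in TH against 3.56 and 3.66 for TL, 9.60 and 9.66 for YH, 9.38 for YL1 and 14.4 for YL2. In RPSA it was the low TL that set it apart, its interaction was 1.95 ± 0.36 and 1.66 ± 0.31, and this gene has many processed copies, so its level is uncertain. The list median was above 0 under all 16 alternative settings, from 0.13 to 1.17. It was 0.39 without TH1 and 1.17 without TH2, and it was smallest under scaling to a common FPKM sum of 1000000, which moved the median of all genes by -0.26.

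In the list of annexins, S100 proteins and membrane repair 18 of 21 genes were above 0, with a median of 0.54 with 8 libraries and 0.82 with YL1 alone. The 3 members past the looser threshold (14.3% of the list, beside 0.533% of all genes tested) were CD151, CHI3L1 and CRTAC1. None of these is an annexin or an S100 protein. CHI3L1 and CRTAC1, described above, were tested only because TH was high, so these counts support nothing. Without the filter 18 of 23 were above 0 with a median of 0.46. The median was 0.82 without TH1, 1.20 without YL1, 1.45 on log2(scaled count + 1), and 0.21 with 11 of 21 above 0 under scaling to a common FPKM sum of 1000000. CD151, a tetraspanin that holds integrins, had 324 and 329 FPKM in TH against 90.5 and 100.2 for TL, 94.7 and 112 for YH, 115 for YL1 and 80.8 for YL2, with an interaction of 1.67 ± 0.36 with 8 libraries and 1.92 ± 0.32 with YL1 alone. ANXA2, a calcium-dependent membrane binder, had 355 and 275 FPKM in TH against 72.7 and 77.6 for TL, 59.6 and 123 for YH, 74.2 for YL1 and 52.7 for YL2, with an interaction of 1.60 ± 0.53 and 1.84 ± 0.56. In both genes TH was above all other libraries, and YH and YL overlapped in each. Chaperone genes had 18 of 25 above 0 and a median of 0.36 with 8 libraries and 0.61 with YL1 alone, but the median was -0.18 under scaling to that common FPKM sum, and it was 0.14 without YH1, 0.63 without YH2 and 0.18 without YL1. A further 4 lists had no member past the looser threshold in both fits, beside 0.533% and 1.7% of all genes tested in the positive and the negative direction. At those shares a count of 0 says little in lists of this size. Their medians with 8 libraries and with YL1 alone were 0.13 and 0.21 for 20 immediate early genes, -0.13 and 0.15 for 23 Z-disc and cytoskeleton genes, -0.42 and 0.02 for 11 creatine and phosphate shuttle genes, and -0.55 and -0.43 for 12 smooth muscle and pericyte genes. The sign of the immediate early list turned without YH1 (-0.20), and that of the Z-disc list without TL2 (0.01). Without TH2 the creatine list was at -0.10 and the smooth muscle list at -0.31.

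Genes of oxygen sensing were close to the median of all genes. Of 27 tested, 11 were above 0 and 16 below with 8 libraries, the median was -0.11 in both fits, and 0.03, -0.19 and -0.06 without TH1, TH2 and TL2, and 0 were past the unadjusted threshold in both fits, beside 0.533% and 1.7% of all genes in the positive and the negative direction. EPAS1, the hypoxia-inducible factor 2 alpha, had 37.7 and 57.6 FPKM in TH against 60.3 and 64.6 for TL, 59.9 and 50.7 for YH, 55.2 for YL1 and 44.6 for YL2, with an interaction of -0.56 ± 0.38 and -0.41 ± 0.40, and of -0.26 and -0.86 without TH1 and TH2. VEGFA, the main growth factor of vessels, had 56.4 and 53.6 FPKM in TH against 53.3 and 86.5 for TL, 82.0 and 77.4 for YH, 71.2 for YL1 and 54.0 for YL2, with an interaction of -0.66 ± 0.41 and -0.46 ± 0.41. In EPAS1 the YH libraries overlapped YL, and in VEGFA the TH libraries overlapped TL. BNIP3, a mitophagy receptor induced by hypoxia, had 69.6 and 43.3 FPKM in TH against 77.9 and 84.0 for TL, 84.5 and 73.4 for YH, 111 for YL1 and 103 for YL2, with an interaction of -0.11 and -0.06, and of 0.22 without TH2. EGLN3, an oxygen-dependent hydroxylase, had 35.2 and 29.2 FPKM in TH against 38.0 and 43.9 for TL, 81.2 and 56.5 for YH, 79.7 for YL1 and 34.5 for YL2, with -0.70 and -0.11.

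Vessel growth genes had a median of -0.50 with 8 libraries and -0.39 with YL1 alone, and of -0.26 without TH1, with 22 of 26 below 0 in the first fit and 16 of 26 in the second. FGF1, the acidic fibroblast growth factor, had 15.3 and 18.0 FPKM in TH against 45.2 and 56.5 for TL, 61.8 and 42.9 for YH, 44.7 for YL1 and 21.2 for YL2, with an interaction of -2.27 ± 0.53 with 8 libraries and -1.75 ± 0.39 with YL1 alone. AGT, the precursor of angiotensin, had 53.1 and 41.7 FPKM in TH against 70.4 and 94.3 for TL, 80.2 and 70.9 for YH, 28.4 for YL1 and 27.7 for YL2, with an interaction of -2.17 ± 0.35 with 8 libraries and -2.15 ± 0.37 with YL1 alone. In AGT the order was reversed between the breeds without overlap. In ITGA5, an integrin of fibronectin, YH2 alone was high at 2152 FPKM against 27.1 to 202 in the other 7 libraries, and its interaction was -2.11 with that library and 0.26 without it. Endothelial markers had 13 and 11 of 14 genes below 0 in the 2 fits and a median of -0.73 with 8 libraries and -0.83 with YL1 alone. Of these 14 genes 0 were past the threshold, beside 1.7% of all genes tested in the negative direction. At that share a count of 0 says little in so short a list. The endothelial sum ran from 279 to 337 FPKM for TH, from 300.5 to 316 for TL, from 284 to 318 for YH and from 215 to 256 for YL. Extracellular matrix genes had a median of -0.46 with 8 libraries and -0.41 with YL1 alone, but the TH libraries differed, and the median was 0.11 without TH1 (22 of 37 above 0) and -1.24 without TH2. LOXL1, an enzyme that crosslinks elastin, was the 1 member past the looser threshold (2.7% of the list, beside 0.533% of all genes tested) and was positive, with 22.0 and 23.0 FPKM in TH against 5.0 and 5.71 for TL, 3.49 and 4.72 for YH, 3.67 for YL1 and 2.73 for YL2. Its TH libraries were above all others, YH overlapped YL, and the interaction was 1.61 ± 0.33 with 8 libraries and 1.77 ± 0.32 with YL1 alone. COL3A1, a fibrillar collagen, was not past the threshold and had 18.2 and 172 FPKM in TH against 213 and 171 for TL, 52.1 and 68.1 for YH, 41.0 for YL1 and 36.8 for YL2, with an interaction of -2.34 ± 1.23 and -2.26 ± 1.41, and of -0.75 without TH1 and -3.93 without TH2.

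The 21 genes that the study tabulated as related to hypoxia had 11 members above 0 and 10 below, with a median of 0.14 with 8 libraries and 0.33 with YL1 alone, but -0.07 without TH1, 0.61 without YH2 and -0.06 without YL1. That list was chosen by the study on these samples and is no independent evidence of a direction. Past the unadjusted threshold in both fits were NPPA and NPPB in the positive and FGF1 and AGT in the negative direction, 9.52% of the list each, beside 0.533% and 1.7% of all genes tested. CD44, a hyaluronan receptor, had 75.5 and 81.1 FPKM in TH against 11.2 and 16 for TL, 13 and 42.6 for YH, 17.0 for YL1 and 16 for YL2, with an interaction of 1.97 and 2.01, and of 1.15 without YH1. PDLIM3, a Z-disc protein, had 236 and 351 FPKM in TH against 38.7 and 97.1 for TL, 76.6 and 210 for YH, 30.7 for YL1 and 21.9 for YL2. In PDLIM3 the highland group was above the lowland group in both breeds without overlap, and the interaction was -0.04 and 0.20, and -0.76 and 0.68 without YH1 and YH2. ATF3, a stress-induced transcription factor, had 38.8 and 50.0 FPKM in TH against 144 and 180 for TL, 5.24 and 9.15 for YH, 13.5 for YL1 and 5.17 for YL2, with an interaction of -1.60 and -0.98.

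**Figure D5:**
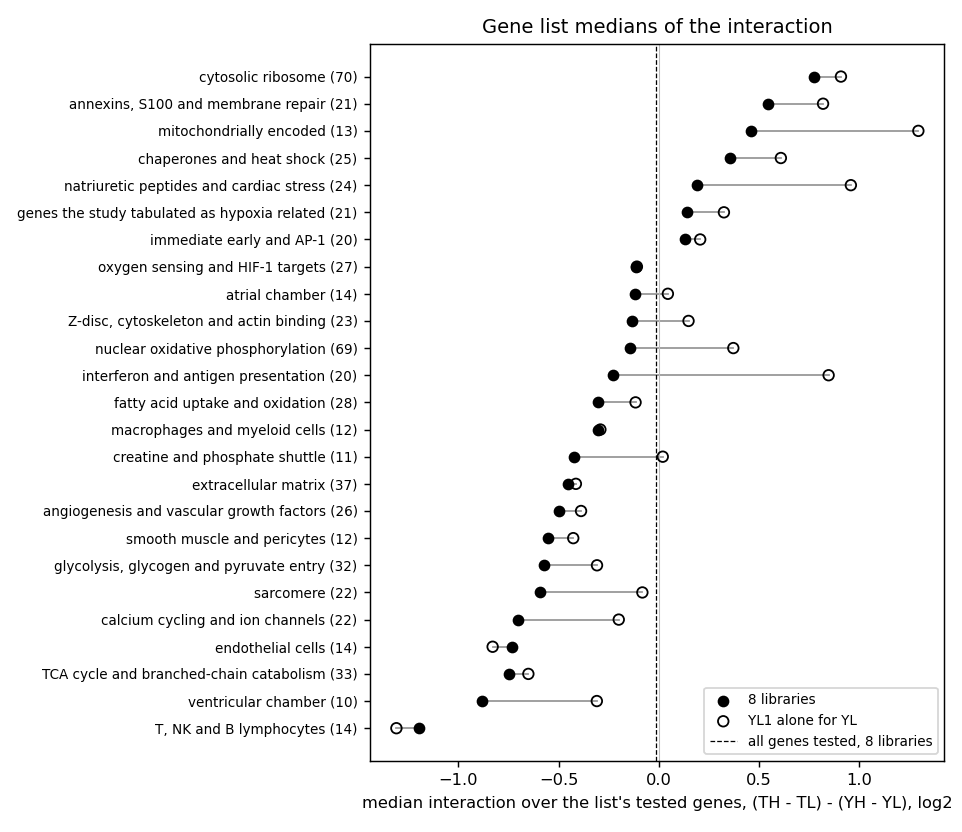
Median interaction on the log2 scale for each gene list with at least 10 tested members, with all 8 libraries (filled) and with YL1 alone for YL (open), and the number of genes tested in brackets. The lymphocyte list lies lowest at -1.20 and the ribosomal list highest at 0.78 with 8 libraries, and the lists of mitochondrial, stress and interferon genes move most between the fits.

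Markers of tissues other than heart bear on single genes. Of 25 kidney markers 4 were tested, with a median interaction of 2.77 with 8 libraries and -0.06 with YL1 alone. ENPEP, an aminopeptidase of the kidney brush border, had 681 FPKM in YL2 and 6.77 to 15.7 in the other libraries. For blood, 3 of 14 markers were tested with a median of -0.35, which was 0.09 without TH2, and HBB, the beta chain of hemoglobin, had 1708 and 876 FPKM in TH against 649 and 642 for TL, 599 and 534 for YH, 374 for YL1 and 290 for YL2, with an interaction of 0.14 and 0.33, and of -0.34 without TH1. HBB was higher in the highland group of both breeds without overlap. Skeletal muscle markers had 3 genes tested, 1 above 0 and 2 below, with a median of -1.14 with 8 libraries and -0.17 with YL1 alone. That median ran from -2.10 to 0.12 under the alternative settings. TNNC2, the fast skeletal troponin C, was the 1 above 0. It had 3.24 and 3.41 FPKM in TH and 0.15 to 0.78 elsewhere, with an interaction of 2.0 ± 0.35 with 8 libraries and 2.32 ± 0.28 with YL1 alone. TNNC2 reached 1 FPKM in TH only and was tested only because TH was high, so these values are a description. Liver markers had 3 genes tested, with ALB at 0.61 to 4.17 FPKM in all libraries, and lung markers 1. Adipocyte markers had 5 genes tested with a median of -0.28 and -1.25, which was -1.08 without TL2 and 0.02 without YL1. PLIN4, a coat protein of lipid droplets, had 2.65 and 3.58 FPKM in TH against 8.92 and 9.33 for TL, 9.24 and 9.02 for YH, 5.27 for YL1 and 5.78 for YL2, with an interaction of -1.94 ± 0.30 and -2.0 ± 0.31. The defining fat genes ADIPOQ, LEP and CIDEC were not among the genes tested. The part of other tissues in these results was not tested.

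NPPB and NT5C1A, at the ends of the symbol-bearing genes past the looser threshold in both fits, had close followers across libraries. By Pearson correlation of log2(FPKM + 1) over the 7 libraries other than YL2, the genes most like NPPB were CSDA (0.985), SDF2L1 (0.984), DES (0.979), SERTAD1 (0.977) and SPTB (0.97). DES, the intermediate filament desmin, had 9125 and 5761 FPKM in TH against 1295 and 1728 for TL, 1697 and 2624 for YH, 3510 for YL1 and 920 for YL2. The genes most like NT5C1A were IDH3B (0.99), PLIN4 (0.99), MYLIP (0.987), CLPP (0.984) and SLA-DRB*K07G (0.981). These are the highest of many correlations over few libraries and are given as a description.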

How the data were processed

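RNA of hearts was sequenced by the authors as 100-bp pairs, aligned to Sscrofa10.2 with TopHat 2.0.9 and summed per gene as FPKM with Cufflinks. The deposited table also holds a signal the authors scaled from read counts by 1 factor per library, which was used for depth and the filter. Columns of the authors' group means and ratios were not used. Sequences of the genes were not used here.

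The limma 3.58.1 model in R 4.3.3 had 1 mean per group, a variance trend and Benjamini-Hochberg adjustment over the 11439 genes tested, with calls made where the adjusted p was under 0.01 and the log2 difference over 1 in size. It was tested on simulated data. Fold changes on the log2(FPKM + 1) scale understate those of low genes. Named were the 12 largest genes per direction past the unadjusted threshold in both fits, at most 4 genes per list by FPKM, and tabulated genes of the study. Others, such as list members past the looser threshold, were chosen after their values were seen. Genes and the 31 lists were chosen with earlier results of these data known. For a symbol with several Ensembl genes, the one of highest FPKM stood for it in a list. Replicate numbers do not pair libraries. Alternatives were another pseudocount, filter, scaling, moderation, weights, a replicate block and each library left out.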

Additional observations from a re-analysis of the deposited data

Results flagged for a closer look

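In 15 of the 24 symbol-bearing genes with the largest interactions among those past the looser threshold in both fits, 12 per direction, every library of TH and TL was apart in one direction and every library of YH and YL in the other. The difference between the breeds was not past the adjusted threshold in any of them by limma. On the log2 scale of the 8-library fit the interaction was 5.63 in APOC3, 4.19 in SLN, 3.65 in CCDC3, 3.44 in ACSM5 and 3.22 in SDF2L1, where TH was above TL and YH below YL. In APOC3 and ACSM5 all TH and TL libraries lay near the floor, and the value came from YL. In the negative direction the interaction was the following. The value was -4.27 in NT5C1A, -3.43 in KLHL31, -3.40 in GNG7, -3.35 in CXCL9, -3.04 in SLA-DRB*K07G, -3.03 in MYOM3, -3.01 in SMYD1, -2.94 in NEK7, -2.94 in IGLV-9 and -2.83 in CRYBG3, where TH was below TL and YH above YL. Such an order held for 4.09% of all genes tested in the first direction and 7.53% in the second. These genes were chosen for a large interaction on the same libraries.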

How the results depend on the processing

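With 2 libraries per group, YL2 apart from the rest and FPKM as the unit, no call was made in the main fits, and the counts moved with the settings. In the 8-library fit, calls went from 0 to 4 without a filter, to 4 with a mean of at least 10 FPKM, to 7 with each library at an FPKM sum of 1000000 and to 13 with that sum without mitochondrial genes. The looser rule, an unadjusted p under 0.01 and an interaction over 1 in size, was passed by 351 genes. With YL1 alone these counts were 25, 8, 4, 2 and 438, and 1 gene was called on log2(scaled count + 1), chosen after seeing the data. The 4 calls without a filter and with 10 FPKM were in each case snoU13, snosnR61 and 2 genes without a symbol. NPPB was among the calls under both FPKM sums in both fits, and so was a gene with a clone name, which was negative. APOC3 and ACSM5 were called under both sums with 8 libraries and under the first with YL1 alone. MYH6 was also called under both sums with 8 libraries, and NPPA, HAMP and MT1A under the second. In these fits limma took most or all of each gene's spread from that of all genes. Its prior degrees of freedom were infinite under the first sum and 135 and 13.9 under the second, against 3.23 and 3.75 in the main fits. ASH1L was the call on scaled counts. These names were chosen after their values were seen. Leaving out 1 library gave 0 to 180 calls in the first fit (180 without YL1, when YL2 alone stands for YL) and 0 to 86 in the second (86 without TH2). The lone library of a group is then assumed to vary like the others. By the looser rule there were 23, 10 and 26 positive genes, against 61, and 63, 56 and 86 negative genes, against 194, with the mean of 10 FPKM and the 2 FPKM sums, of which 20, 9 and 17 and 58, 39 and 51 were among the original ones. Without a filter there were 129 negative genes, 113 of them among the 194. Leave-out gave 28 to 269 positive and 68 to 743 negative genes. With a replicate block the calls were 0 in both fits and the looser counts 51 and 155, of which 43 and 143 were shared with the main ones. It changed no other call, and replicate differences of the groups correlated from -0.147 to 0.177. In the FPKM sums the median of all genes moved by -0.26 and -0.14 with 8 libraries and by -0.67 and -0.77 with YL1 alone. With YL1 alone it also moved by 0.17 with the mean of 10 FPKM, by -0.14 under median-ratio scaling and by 0.11 on scaled counts. Leaving out each library in turn, the interaction ran from 7.13 to 10.5 in NPPB, from 3.37 to 5.34 in NPPA and from -4.80 to -3.73 in NT5C1A. None of the 255 genes past the looser threshold in both fits changed sign in the 8-library fit without any 1 of the 7 libraries other than YL2, but they were chosen on these libraries. The causes of these shifts were not tested. Count tests on whole reads were not run.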

Other observations

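Genes of other roles were also past the unadjusted threshold in both fits. They were chosen after their values were seen, and the limma interaction is given with 8 libraries. IGFBP2, a binding protein of insulin-like growth factors, had 39.6 and 38.8 FPKM in TH against 9.84 and 13.4 for TL, 13.5 and 19.1 for YH, 30.05 for YL1 and 40.3 for YL2, with an interaction of 2.76 ± 0.38. TL and YH were thus the low groups. IGF2, an insulin-like growth factor, had 10.4 and 19.6 FPKM in TH against 36.3 and 29.5 for TL, 64.0 and 118 for YH, 30.2 for YL1 and 26.4 for YL2, with an interaction of -2.72 ± 0.54, so that the binding protein and the growth factor had opposite signs. GLRX, a glutaredoxin of the redox defense, had 140 and 92.7 FPKM in TH and 13.9 to 40.3 elsewhere, with an interaction of 2.33 ± 0.43. SSR4, a subunit of the translocon-associated complex of the endoplasmic reticulum, had 292 and 197 FPKM in TH and 85.4 to 105 elsewhere, with an interaction of 1.59 ± 0.37. PINK1, a kinase that marks damaged mitochondria, had 12.6 and 16.8 FPKM in TH and 33.6 to 42.5 elsewhere, with an interaction of -1.36 ± 0.32. IRF8, a transcription factor of myeloid and B cells, had 3.93 and 7.38 FPKM in YH against 0.77 and 1.46 for TH, 2.53 and 2.06 for TL, 0.61 for YL1 and 0.67 for YL2, with an interaction of -2.63 ± 0.43.

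SLC2A4, the insulin-regulated glucose carrier, is listed as 2 Ensembl genes that differ in this comparison. The one at 1.28 to 5.99 FPKM had an interaction of -2.13 ± 0.33 and was past the threshold in both fits, and the one at 27.8 to 70.8 FPKM had -0.75 ± 0.55 and was not. The division of reads between the 2 was not tested.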
